A study of Mus musculus with 10 samples.

Results

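The tumour-infiltrating Th17 cells described here are 862 cells of 21549 kept cells (22590 barcodes in all) from mouse colorectal carcinomas. The cells were selected on their own measured transcripts. A cell was counted as Th17 when it had at least 300 detected genes, at most 10% mitochondrial UMIs, a productive T cell receptor beta chain (TRB) in the receptor library of the same tumour, no UMI of Cd8a, Cd8b1 or Foxp3, and at least 1 UMI of Il17a, Il17f or Il22. A UMI (unique molecular identifier) stands for 1 captured RNA molecule. The 10821 cells that met the same conditions but had no UMI of these cytokines are called the other cells. By library there were 134 and 103 Th17 cells in tumours given S. chamaejasme plus anti-PD-1 (the combination, 2 libraries), 266 in the tumour given S. chamaejasme (1 library), and 218 and 141 in untreated tumours (2 libraries). S. chamaejasme (Stellera chamaejasme) is a plant used in herbal medicine, and anti-PD-1 is an antibody against the inhibitory receptor encoded by Pdcd1. Both combination libraries carried S. chamaejasme as well as the antibody, no group with the antibody alone was analysed here, and the sources used here do not give strain, age, tumour line, dose, days or pooling. The labels do not say that the libraries of a group came from separate animals, so p-values measure the spread between these libraries.

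Th17 cells are CD4+ T helper cells that secrete IL-17A, IL-17F and IL-22. IL-23, through the receptor subunit Il23r, sustains them, and Ccr6 guides them to epithelia that release its ligand Ccl20. In the gut they defend the mucosa and respond to the microbiota, and IL-22 acts on epithelial cells, the cells of origin of colorectal carcinoma.

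Library size ran from 8763821 UMIs (untreated 1) to 27759543 UMIs (combination 1). The median Th17 cell had 4928 and 4988 UMIs in the combination, 3879 with S. chamaejasme, and 3761.5 and 4477 untreated; the median other cell had 5039 and 4849, 3580, and 3621 and 3997. Libraries shared 227 cell barcodes; 18 of these held a Th17 cell, and 0 had the same TRB CDR3 in both libraries. Nuclear and mitochondrial transcripts that track RNA quality summed to 24124 and 25054 CPM (UMI counts scaled to the total of the cell class) in combination Th17 cells and 23836 CPM with S. chamaejasme, against 33747 and 43615 CPM in untreated Th17 cells, and the same gap was present in the other cells (26797 and 26095, 23928, 38763 and 46219 CPM). No batch is named in the labels, and library preparation and treatment cannot be told apart.

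The label was checked with genes that did not choose the cells. Il23r stood at 71 and 52.3 CPM in the combination Th17 cells, 68.3 with S. chamaejasme, and 73.2 and 45.9 untreated, against 0.813 and 1.16, 1.96, and 3.92 and 1.20 CPM in the other cells of the same libraries. All 5 Th17 values lay above all 5 values of the other cells. Cd4 was present at 138 to 202 CPM in Th17 cells and at 0.830 to 6.75 CPM in Cd8-positive cells. Cells with a single cytokine UMI, 197 in all (22.9%), had Il23r levels of 20.3 and 8.38 CPM in the combination, 43 with S. chamaejasme and 13.1 and 6.49 untreated. Each was above the other cells, but from only 4 and 1, 11, and 2 and 1 Il23r UMIs. In these cells Ccr6 was at 0 in combination 2 (other cells 3.68 CPM) and Il1r1 at 6.49 CPM in untreated 2 (other cells 8.14 CPM). In the remaining libraries both were above the other cells, and Rora was above them in every library. Il23r was lower in cells with a single cytokine UMI than in cells with 5 or more in every library, for example 8.38 against 88.4 CPM in combination 2.

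The gamma delta, innate lymphoid and NK, and myeloid marker sums were higher in Th17 cells than in the other cells in every library. Of the gamma delta markers, Trdc (the delta chain constant region) was at 0 in Th17 cells of 2 libraries and at most 8.61 CPM in any. The 11 gamma delta markers summed to 29.3 to 123 CPM in Th17 cells, against 12.5 to 87.1 CPM in the other cells. Innate lymphoid and NK markers summed to 137 to 211 CPM in Th17 cells, against 76.4 to 186 CPM in the other cells. Klrb1b, Ncr1 and Klre1 had no UMI in any Th17 cell. B cell markers summed to 20.1 to 82.9 CPM (5 of 9 without a UMI, Cd79a and Ms4a1 among them), against 41.1 to 191.5 CPM in the other cells. Myeloid markers summed to 129 to 181 CPM (3 of 14 without a UMI), against 80.3 to 155 CPM. Epithelial markers summed to 5.63 to 14.8 CPM (4 of 8), against 5.39 to 13.2 CPM, and stromal markers to 33.2 to 51.7 CPM (8 of 9), against 37.5 to 45.7 CPM.

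Th17 cells formed a smaller share of the Cd8-negative Foxp3-negative TRB cells in both combination libraries than in either untreated library. The share was 4.25% (134 of 3153 cells, exact 95% interval 3.57 to 5.01) and 3.51% (103 of 2931, 2.88 to 4.25) in the combination and 9.86% (266 of 2697, 8.76 to 11.1) with S. chamaejasme. In the untreated libraries it was 21.5% (218 of 1016, 19.0 to 24.1) and 7.48% (141 of 1886, 6.33 to 8.76). These intervals cover counting error only. The means were 3.88% ± 0.520 and 14.5% ± 9.89 (SD, n = 2 each), a difference of -10.6 percentage points (two-sided exact permutation test, p = 0.333, the smallest that 2 against 2 libraries can give). The untreated libraries differed from each other by more than either differed from the S. chamaejasme library. Without untreated library 1 the difference was -3.59 points, and without untreated library 2 it was -17.6 points. After thinning every cell to 1500 UMIs the shares were 2.97 and 2.47%, 8.18%, and 18.3 and 5.66%, in the same order of groups. Cd8-positive cells, which can include Tc17 cells, had a cytokine UMI in 1.54 and 1.34% of cells in the combination. The share was 4.19% with S. chamaejasme and 6.20 and 3.55% untreated. Median depths of the Cd8-positive cells were 6309 and 6023.5, 4171, and 4632.5 and 4928 UMIs. Of the cytokine-positive ones, 2 of 8 and 6 of 8 in the combination had 2 or more cytokine UMIs. So did 16 of 24 with S. chamaejasme, and 10 of 15 and 8 of 11 untreated. How much of the share came from free RNA was not tested. The whole share was below the Th17 share in each library and was lowest in the combination too. The share with exactly 1 cytokine UMI was 1.15 and 0.334%, 1.40%, and 2.07 and 0.968%. Here combination 1 lay above untreated 2.

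**Figure D1:**
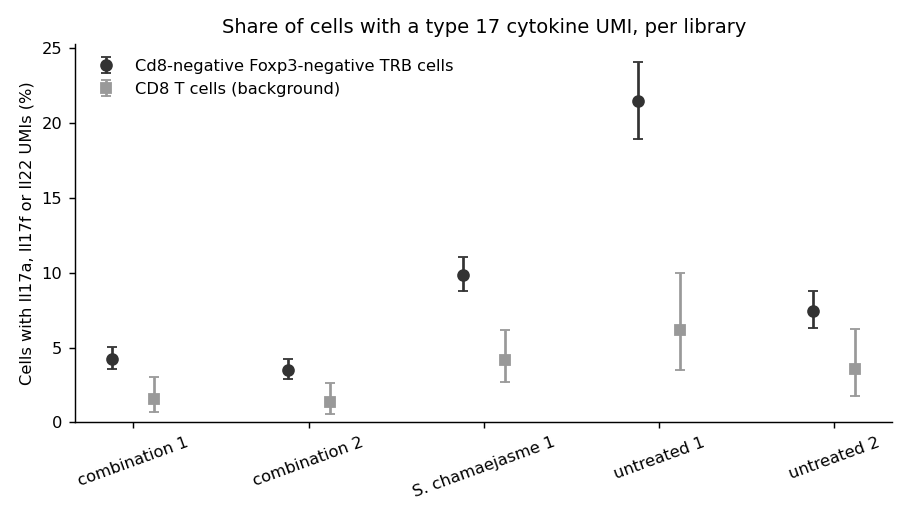
Share of cells with a UMI of Il17a, Il17f or Il22 (%, vertical axis) in each of the 5 libraries, for Cd8-negative Foxp3-negative TRB cells (circles) and Cd8-positive T cells (squares), with exact 95% binomial intervals. The combination libraries lie at 4.25 and 3.51%, below the untreated libraries at 21.5 and 7.48%.

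Summed over all Cd8-negative Foxp3-negative TRB cells, all 3 cytokine transcripts were lower in the combination than untreated. Il22 had 48.0 and 31.8 CPM in the combination and 147 CPM with S. chamaejasme, against 502 and 213 CPM untreated (log2 fold change -3.15 ± 0.38 SE, combination against untreated, edgeR adjusted p = 0.0101). Il17a had 109 and 87.0 CPM, 325 CPM, and 640 and 206 CPM (-2.10 ± 0.43, adjusted p = 0.0348; adjusted p = 0.0869 by DESeq2). Il17f had 31.7 and 18.7 CPM, 67 CPM, and 57.4 and 51.4 CPM (-1.10 ± 0.22, adjusted p = 0.0335). For each cytokine the combination libraries lay below both untreated libraries. In this fit 695 of 11531 genes (6.03%) differed, 238 higher (2.06%) and 457 lower (3.96%), a count that ran from 205 without combination library 2 to 2339 without untreated library 2. Fewer cells of the type and less RNA per cell cannot be told apart in such sums. Il23r (-1.65 ± 0.52, adjusted p = 0.0977) did not pass.

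Within the Th17 cells, the make-up of the cytokine RNA differed between libraries. These genes chose the cells, so their levels per Th17 cell are given without a test. Il22 made up 25.4 and 23.1% of the cytokine UMIs in the combination and 27.3% with S. chamaejasme, against 41.9 and 45.3% untreated. Il17a made up 57.7 and 63.3%, 60.3%, and 53.4 and 43.8%. Il17f made up 16.8 and 13.6%, 12.4%, and 4.79 and 10.9%. As CPM of the Th17 cells, Il22 was 1060 and 880, 1457, and 2254 and 2383, while Il17a was 2407 and 2407, 3215, and 2873 and 2303. Il17a thus overlapped between combination and untreated libraries and Il22 did not. The Il22 UMIs per Il17a UMI were 0.440 and 0.366, 0.453, and 0.784 and 1.03, and without the clone with most Th17 cells in each library 0.512 and 0.442, 0.450, and 0.893 and 1.03. Counting was from the 5′ end, so a UMI does not scale with transcript length.

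Most Th17 cells did not show all 3 transcripts. Il22 alone was seen in 280 cells (32.5%), Il17a alone in 174 (20.2%), Il17a with Il22 in 132 (15.3%), all 3 in 125 (14.5%), Il17a with Il17f in 91 (10.6%), Il17f alone in 38 (4.41%) and Il17f with Il22 in 22 (2.55%). A cell that lacks a UMI may still have made the transcript, since detection depends on depth. Il17a and Il17f lie next to each other on chromosome 1 (GRCm38, 20730905 to 20734496 and 20777146 to 20790617), and Il22 lies on chromosome 10 (118204942 to 118210047) beside Iltifb (118289629 to 118295038), a near-identical copy whose reads cannot be fully told apart from those of Il22.

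**Figure D2:**
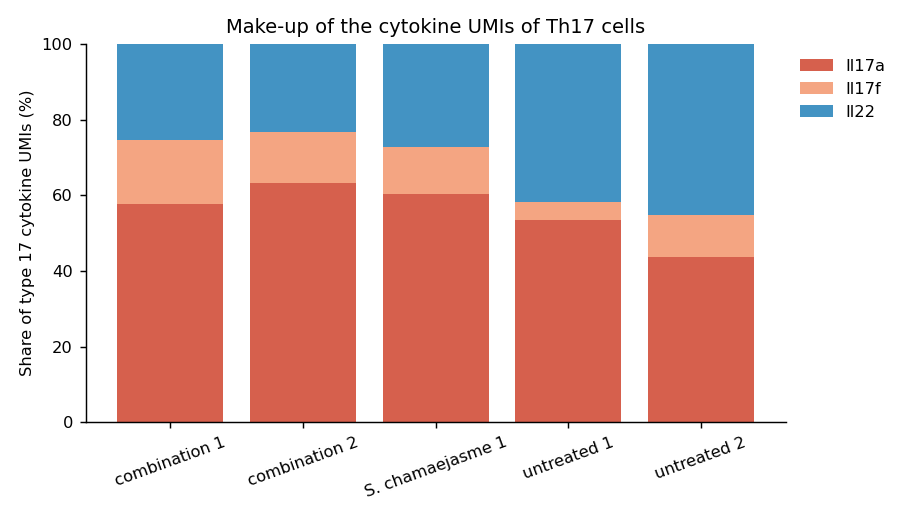
Share of the cytokine UMIs of Th17 cells that came from Il17a, Il17f and Il22 (%, stacked bars) in each library. The Il22 share is 25.4 and 23.1% in the combination, 27.3% with S. chamaejasme and 41.9 and 45.3% untreated.

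Compared with the other cells of the same tumour, Th17 cells had more RNA of most listed type 17 genes and less of most naive and lymphoid homing genes. UMI counts were summed per library and class and compared within libraries (edgeR, library as a block, the 6 genes of the rule left out). In that fit 2158 of 8385 genes differed (25.7%), 1216 higher (14.5%) and 942 lower (11.2%), with a median log2 fold change over all genes of -0.02. Levels below are in CPM scaled within each fit, as means over 5 libraries with SD.

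Transcription factors of the Th17 lineage were higher in Th17 cells for 14 of 16 listed genes and lower for 1 (list median 1.13 on the log2 scale). Rora, a nuclear receptor that promotes Th17 differentiation, averaged 787 ± 247 CPM in Th17 cells and 157 ± 40.4 CPM in the other cells (log2 fold change 2.31 ± 0.09 SE, adjusted p = 1.84e-12). Ahr, the aryl hydrocarbon receptor that drives Il22, averaged 162 ± 31.7 and 63.1 ± 15.7 CPM (1.37 ± 0.10). Basp1 was the listed gene that was lower, at 2.88 ± 1.27 and 9.42 ± 2.80 CPM (-1.68 ± 0.35).

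Of 20 listed receptors and surface genes, 14 were higher and 3 lower (list median 2.49). Il23r had 65.3 and 49.4 CPM in combination Th17 cells, 67.1 with S. chamaejasme and 75.5 and 49.3 untreated, against 0.850 and 1.18, 1.95, and 3.98 and 1.28 CPM in the other cells (5.28 ± 0.23, adjusted p = 4.93e-12). Every Th17 value was above every value of the other cells. Ccr6, the Ccl20 receptor, averaged 68.7 ± 13.1 and 4.88 ± 2.45 CPM (3.89 ± 0.21), and Cxcr6, a receptor of tissue-resident T cells, 318 ± 64.4 and 30.4 ± 17 CPM (3.48 ± 0.13). Il1r1, through which IL-1 acts on Th17 cells, rose by 2.71 ± 0.17. The lower genes were both IL-6 receptor chains, Il6ra (-1.92 ± 0.15) and the shared signalling chain Il6st (-1.51 ± 0.19), and the IL-21 receptor Il21r.

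Effector products were higher for 10 of 11 tested genes of the 16 listed (list median 1.22), and none was lower. Ccl20 had 248 and 56.2 CPM in combination Th17 cells, 184 with S. chamaejasme and 173 and 89.4 untreated, against 6.80 and 8.23, 5.95, and 4.64 and 1.71 CPM in the other cells (4.68 ± 0.25, adjusted p = 6.16e-11). Summed over Th17 cells, RNA of both Ccr6 and its ligand was present in every library. Furin, a proprotein convertase, averaged 236 ± 91.5 and 27.3 ± 13.0 CPM (3.15 ± 0.13). Tnfsf11, which encodes RANKL, rose by 2.21 ± 0.10, Csf2, which encodes GM-CSF, by 2.42 ± 0.50, and Areg, an epidermal growth factor family ligand, by 0.96 ± 0.23.

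The 15 largest rises in the same direction in all 5 libraries included Iltifb, Cpe, Il17re, Il23r, 1700012B07Rik, Rbm24, Ccr1, Ccl20, Vax2, Serpinb1a, Tmem176a, Mmp25, Pxdc1 and Tmem176b, with log2 fold changes between 4.12 and 9.41. Iltifb (9.41 ± 0.23) shares reads with Il22 and is no independent result. Il17re, a subunit of the receptor for the epithelial cytokine IL-17C, averaged 37.8 ± 9.59 and 1.12 ± 1.13 CPM (5.42 ± 0.38). Serpinb1a, a protease inhibitor, averaged 135 ± 58.4 and 5.93 ± 2.96 CPM (4.52 ± 0.20), and Cpe, carboxypeptidase E, 22.1 ± 18.5 and 0.521 ± 0.306 CPM (5.61 ± 0.43). The 10 largest falls were Hotairm1, Igfbp4, Lrrc32, Sgk3, Dapl1, Myo6, Atp8b4, Vipr1, Treml2 and Gm32633, with log2 fold changes between -3.61 and -3.06. Lrrc32 encodes GARP, which holds latent TGF-beta on regulatory T cells, and averaged 1.23 ± 1.30 and 14 ± 2.58 CPM.

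Of 16 naive and lymphoid homing genes, 14 were lower in Th17 cells and 1 was higher. Ccr7, which guides T cells into lymph nodes, averaged 355 ± 112 and 961 ± 208 CPM (-1.46 ± 0.08), and Lef1, a factor of naive T cells, 110 ± 27.3 and 467 ± 62.4 CPM (-2.10 ± 0.10). The exception was Ccr9, the gut homing receptor, at 40.5 ± 9.53 and 8.90 ± 7.82 CPM (2.44 ± 0.29).

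Among receptors that tune activation, 11 of 16 costimulatory genes were higher and 2 lower, and 5 of 12 tested inhibitory receptors were higher and none lower. Ctla4, an inhibitory receptor, averaged 1010.2 ± 242 and 379 ± 40.5 CPM (1.40 ± 0.12), Icos, a costimulatory receptor, 1212 ± 114 and 409 ± 50.7 CPM (1.57 ± 0.08), and Lilrb4a 76.8 ± 44.5 and 10.2 ± 5.84 CPM (2.89 ± 0.18). Cd27, a costimulatory receptor, was lower, at 40.8 ± 29.5 and 143 ± 31.7 CPM (-1.86 ± 0.19). Immediate early and receptor-induced genes were higher for 15 of 23 tested and lower for 4, and dissociation-related and heat shock genes for 11 of 16 and 0.

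Glycolysis and hypoxia genes were higher for 9 of 19 tested and lower for 1, led by Hk2, hexokinase 2, at 102 ± 54.0 and 12.7 ± 7.61 CPM (3.03 ± 0.15). Cholesterol and lipid synthesis genes were higher for 7 of 14 and lower for 0, with Sqle, squalene epoxidase, up by 1.43 ± 0.20. Type I interferon genes were lower for 7 of 18 and higher for 1, with Usp18, a brake on interferon signalling, at 1.41 ± 0.881 and 9.37 ± 2.66 CPM (-2.63 ± 0.43). Interferon gamma and antigen presentation genes were lower for 6 of 28 and higher for 1, a share called close to that of all genes. Th1 genes were split, 4 higher and 4 lower of 14: Cxcr3 rose by 1.48 ± 0.24 and Il18rap by 2.10 ± 0.23, while Ccl5 fell, at 75.0 ± 72.5 and 344 ± 186 CPM (-2.35 ± 0.28). Tcrg-C1, a gamma chain constant gene, rose by 2.57 ± 0.29 although these cells carry a TRB chain, and Kit by 2.58 ± 0.18.

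**Figure D3:**
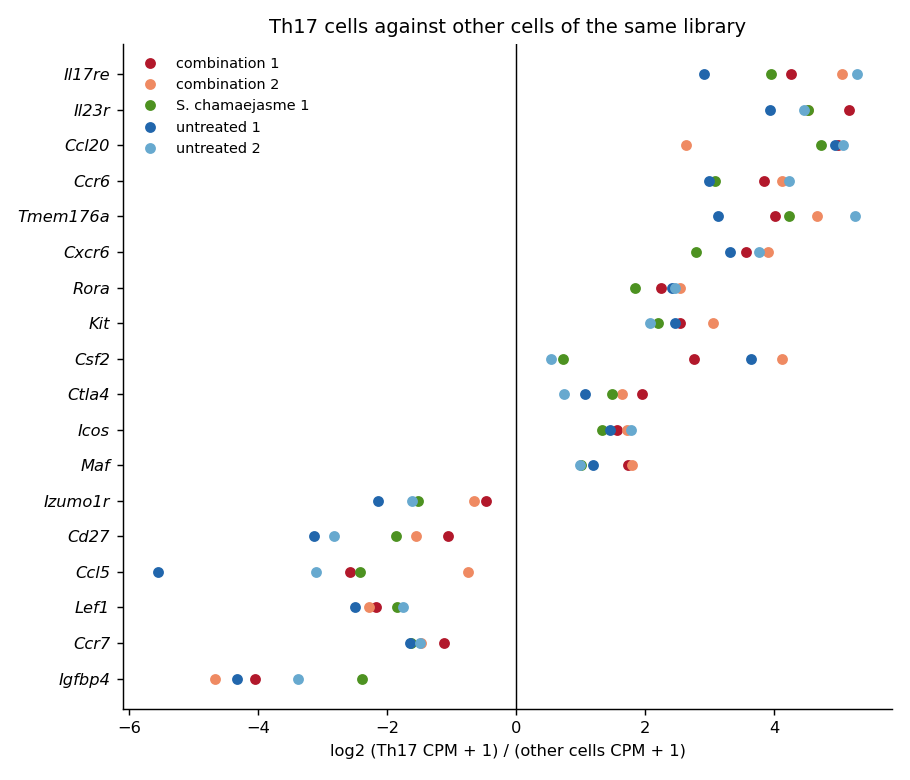
Log2 ratio of CPM + 1 in Th17 cells over the other cells of the same library (horizontal axis) for 18 genes, each point 1 library. Points of a gene lie on 1 side of 0 in all 5 libraries, to the right for Il23r, Ccr6 and Ccl20 and to the left for Lef1, Ccr7 and Cd27.

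Most other cells were the only cell of their clone, so Th17 cells were also set against the other cells in clones of 2 or more cells. This alternative was added after the data were seen. All 862 Th17 cells were kept, those alone in their clone included, so the comparison is not matched for expansion. The expanded other cells included 352 cells that shared a clone with a Th17 cell. Against these expanded cells 613 of 6412 genes differed (9.56%), 384 higher (5.99%) and 229 lower (3.57%). Of the type 17 lists, 14 of 20 receptors and surface genes were higher and 2 lower, 8 of 15 transcription factors higher and 1 lower (Hif1a, -0.37 ± 0.08, adjusted p = 0.00407), and 6 of 10 effector products higher and 0 lower, with Il23r at 3.90 ± 0.26, Ccl20 at 3.18 ± 0.35 and Ccr6 at 2.23 ± 0.20 on the log2 scale. Fewer transcription factors and effector products passed than against all other cells, and the effector products Areg (-0.17 ± 0.19) and Il21 (-0.66 ± 0.27) had negative values that did not pass. Of 15 naive and lymphoid homing genes 4 were higher and 3 lower, and Ccr7 (0.38 ± 0.10) was higher in Th17 cells. Cholesterol genes were called for 0 of 12 (edgeR), glycolysis and hypoxia genes were higher for 3 and lower for 1 of 17, and type I interferon genes were higher for 1 and lower for 1 of 14. Inhibitory receptors were higher for 2 and lower for 2 of 10: Pdcd1 and Tigit (-0.78 ± 0.09, adjusted p = 8.95e-06) were lower. Of the costimulatory genes 6 were higher and 4 lower of 16, and Tnfrsf4, higher against all other cells, was lower (-0.36 ± 0.09, adjusted p = 0.0167).

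Of 10 tested follicular helper genes 9 were lower in Th17 cells than in expanded cells, and Icos was higher (0.25 ± 0.07). Izumo1r, the folate receptor FR4, had 158 and 153 CPM in combination Th17 cells, 69.2 with S. chamaejasme and 40.5 and 64.6 untreated, against 394 and 493, 317, and 189 and 364 CPM in expanded other cells (-1.82 ± 0.13, adjusted p = 2.88e-08). Th17 cells were below expanded other cells in each library. The remaining 8 were Il4 (-1.74 ± 0.25), Cxcr5, the follicle homing receptor (-1.44 ± 0.25), Tox (-1.12 ± 0.14), Sh2d1a, the adaptor SAP (-1.02 ± 0.10), Bcl6, the follicular lineage regulator (-1.01 ± 0.19), Pdcd1 (-0.99 ± 0.17), Slamf6 (-0.87 ± 0.11) and Tox2 (-0.71 ± 0.16). Against all other cells, by contrast, Tox2 was higher in Th17 cells (0.96 ± 0.20), Izumo1r (-1.20 ± 0.16) and Tox (-0.70 ± 0.15) were lower, and 6 of the 10 did not pass. Listed regulatory T cell genes went both ways against expanded cells. Ikzf2 (-1.625 ± 0.14) and Tnfrsf9 (-0.78 ± 0.14) were among the lower ones. Capg (1.82 ± 0.11), Il2ra (1.495 ± 0.22) and Ctla4 (0.35 ± 0.10) were higher. Foxp3-positive cells were seen in 43 of 333 expanded clones without a Th17 cell, and the part of such clones was not tested. Of 11 tested Th1 genes 6 were lower in Th17 cells than in expanded cells, Ccl5 (-2.56 ± 0.43) and Ifng (-1.74 ± 0.26) among them, and none was higher. Ccl5 is also a listed CD8 T cell marker, as are Nkg7 (-1.36 ± 0.30) and Gzmb, which was higher (1.46 ± 0.22). CD8 markers summed to 356 and 372, 896, and 358 and 326 CPM in all other cells. In Th17 cells they summed to 499 and 296, 383, and 98.0 and 220 CPM, in the same order of groups. The part of CD8 T cells without a captured Cd8a or Cd8b1 UMI was not tested.

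Between treatments, Th17 cells of the combination differed from untreated Th17 cells in 125 of 7195 genes (1.74%), 45 higher (0.625%) and 80 lower (1.11%). This fit had 2 libraries in each of these groups, 1 with S. chamaejasme, and 2 residual degrees of freedom. The count was 246 without untreated library 1, 247 without untreated library 2, 76 without the S. chamaejasme library and 30 by DESeq2. Of 9 RNA quality transcripts 4 were lower in the combination (Lars2, AY036118, mt-Nd3 and Gm42418, by 1.58 to 2.13 on the log2 scale), and their part in the other differences was not tested. Cells with 1 cytokine UMI made up 26.1 and 23.3% of Th17 cells in the combination, 25.2% with S. chamaejasme and 17.4 and 23.4% untreated.

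Follicular helper genes rose in combination Th17 cells: 6 of 11 tested passed upwards and none downwards (list median 1.18, all genes 0.01). Izumo1r had 150 and 151 CPM in the combination and 70.0 CPM with S. chamaejasme, against 42.7 and 70.4 CPM untreated (1.44 ± 0.24, adjusted p = 0.00301). Tox, a factor of chronically stimulated and follicular T cells, had 113 and 138 CPM, 58.8 CPM, and 36.8 and 61.0 CPM (1.38 ± 0.26, adjusted p = 0.0061). Tox2 had 114 and 128 CPM, 69.0 CPM, and 59.3 and 45.4 CPM (1.18 ± 0.24, adjusted p = 0.00907). In these 3 genes the combination lay above all other libraries. Pdcd1, the target of the antibody, had 110 and 63.8 CPM, 29.9 CPM, and 9.49 and 45.4 CPM (1.79 ± 0.41, adjusted p = 0.0242). The untreated values of Pdcd1 differed by more than those of the other members, and its call was lost without untreated library 1 (0.96, adjusted p = 0.0637), without combination library 1 (1.30, adjusted p = 0.0685), without the S. chamaejasme library (1.81, adjusted p = 0.0799), with at least 2 cytokine UMIs per cell (1.60, adjusted p = 0.0677) and by DESeq2 (adjusted p = 0.926). Slamf6 (0.99 ± 0.24, adjusted p = 0.0393) and Sh2d1a (0.72 ± 0.18, adjusted p = 0.0492) passed narrowly, and each lost the call without either combination library, without untreated library 1 and without the S. chamaejasme library. Izumo1r, Tox and Tox2 kept their call without each library in turn, while DESeq2 gave adjusted p of 0.088 for Tox and 0.159 for Tox2. The 5 other tested members, Il4 (1.68), Angptl2 (2.20), Cxcr5 (0.31), Icos (0.13) and Bcl6 (-0.05), did not pass. In the interaction test given below 1 of 10 tested follicular helper genes passed, Izumo1r. A rise particular to Th17 cells was thus not shown for Tox, Tox2, Pdcd1, Slamf6 or Sh2d1a. Over all Cd8-negative Foxp3-negative TRB cells 2 of 12 tested were called higher (Pdcd1 and Slamf6) and 1 lower (Bcl6).

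The 10 largest rises with groups that did not overlap were Sostdc1, Palld, Ccl5, Ephx1, Cd27, Nipsnap2, Spry1, Art2b, Gstp3 and Coq8a. Cd27 had 82.5 and 65.5 CPM in the combination and 32.6 CPM with S. chamaejasme, against 14.2 and 15.6 CPM untreated (2.32 ± 0.31, adjusted p = 0.000362). Palld, which encodes the actin-binding palladin, had 35.5 and 51.4 CPM, 1.87 CPM, and 1.19 and 3.13 CPM (4.29 ± 0.59, adjusted p = 0.00042), from 28 and 29 UMIs, 2 UMIs, and 1 and 2 UMIs. Sostdc1, a secreted antagonist of BMP and Wnt signalling, had 25 UMIs over both combination libraries and 0 over both untreated libraries, at least 10.2-fold higher with the untreated group set to a floor of 3 UMIs in all. It lost its call without untreated library 1 (adjusted p = 0.1105), without untreated library 2 (adjusted p = 0.0748) and without cells with 2 or more TRB chains. Ccl5 had 48.2 and 182 CPM, 129 CPM, and 4.74 and 23.5 CPM (3.07 ± 0.55, adjusted p = 0.00403; adjusted p = 0.401 by DESeq2). Ctla4 (0.66 ± 0.16, adjusted p = 0.0314), Ikzf2, which encodes Helios (1.60 ± 0.30, adjusted p = 0.00628), and the immediate early genes Fos (1.19 ± 0.16) and Dusp1 (0.98 ± 0.17) also rose. Ctla4 lost its call without combination library 1 (0.62, adjusted p = 0.144) and without the S. chamaejasme library (0.67, adjusted p = 0.0582), and Ikzf2 without combination library 1 (1.29, adjusted p = 0.0683). By DESeq2 the calls of Dusp1 (adjusted p = 0.185), Ikzf2 (adjusted p = 0.157) and Ctla4 (adjusted p = 0.0772) were lost. Fos, Dusp1, Ccl5 and Cd27 were also called higher over all Cd8-negative Foxp3-negative TRB cells, Th17 cells included. Of these genes only Cd27 passed the interaction test given below. Ccl5 is also on the list of CD8 T cell markers, which summed to 499 and 296 CPM in combination Th17 cells, 383 CPM with S. chamaejasme, and 98.0 and 220 CPM untreated, with Cd8a and Cd8b1 at 0 by the rule. Ighm, a B cell marker, rose as well (1.70 ± 0.33), beside B cell marker sums of 71.0 and 82.9 CPM, 34.1 CPM, and 22.5 and 20.1 CPM with Cd79a and Ms4a1 at 0. The part of either in the result was not tested.

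The 10 largest falls were Foxq1, Gm8797, E430024P14Rik, Gm2000, Gm14005, Lars2, Dennd5a, Gbp8, Ctla2a and Gm10036. Foxq1, a forkhead factor, had 0 UMIs over both combination libraries and 24 over both untreated libraries, at least 6.57-fold lower in the combination, and lost its call without combination library 1 (adjusted p = 0.127), without combination library 2 (adjusted p = 0.0567), without cells with 2 or more TRB chains and with 2000 to 8000 UMIs per cell. Gm8797 rested on untreated library 2 (721 CPM, against 32 CPM in untreated library 1), and without it the log2 fold change was -0.97 (adjusted p = 0.263). Ctla2a, a cysteine protease inhibitor of activated T cells, had 68.5 and 83.3 CPM in the combination and 147 CPM with S. chamaejasme, against 299 and 253 CPM untreated (-1.88 ± 0.21, adjusted p = 2.31e-05).

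Some genes that marked Th17 cells against other cells were lower in combination Th17 cells. Furin, Hk2, Rora, Bhlhe40, Prdm1, Cish and Pim1 were also called lower over all Cd8-negative Foxp3-negative TRB cells, Th17 cells included. The Th17 share of these cells was itself lower in the combination. For genes that are higher in Th17 cells, such sums therefore cannot show a fall outside Th17 cells. None of these genes passed the interaction test given below, so a fall particular to Th17 cells was not shown either. In the other cells Rora had 107 and 115 CPM in the combination, 173 with S. chamaejasme, and 184 and 186 untreated. Furin had 180 and 156 CPM in the combination and 190 CPM with S. chamaejasme, against 338 and 344 CPM untreated (-1.01 ± 0.18, adjusted p = 0.00349), and Hk2 59.7 and 63.8 CPM, 74.6 CPM, and 181 and 142 CPM (-1.40 ± 0.23, adjusted p = 0.00187). Rora (-0.76 ± 0.15, adjusted p = 0.00941), Bhlhe40, a factor that promotes cytokine output (-0.53 ± 0.13, adjusted p = 0.039), Prdm1, which encodes Blimp-1 (-1.56 ± 0.33, adjusted p = 0.0152), and the cytokine-induced Cish (-1.08 ± 0.21) and Pim1 (-0.67 ± 0.14) fell too. Without combination library 1 the calls of Rora (-0.58, adjusted p = 0.229), Bhlhe40 (-0.55, adjusted p = 0.227) and Pim1 (-0.51, adjusted p = 0.266) were lost, and Bhlhe40 also lost its call without combination library 2 (adjusted p = 0.288), without the S. chamaejasme library (adjusted p = 0.0555), without cells with 2 or more TRB chains, with at least 2 cytokine UMIs and by DESeq2. Without untreated library 1 the call of Prdm1 was lost (-1.03, adjusted p = 0.137). Il23r (-0.10 ± 0.27), Ccr6 (0.53 ± 0.24) and Ccl20 (0.26 ± 0.38) did not pass, and none of the 20 receptors and surface genes did (0 called by edgeR).

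**Figure D4:**
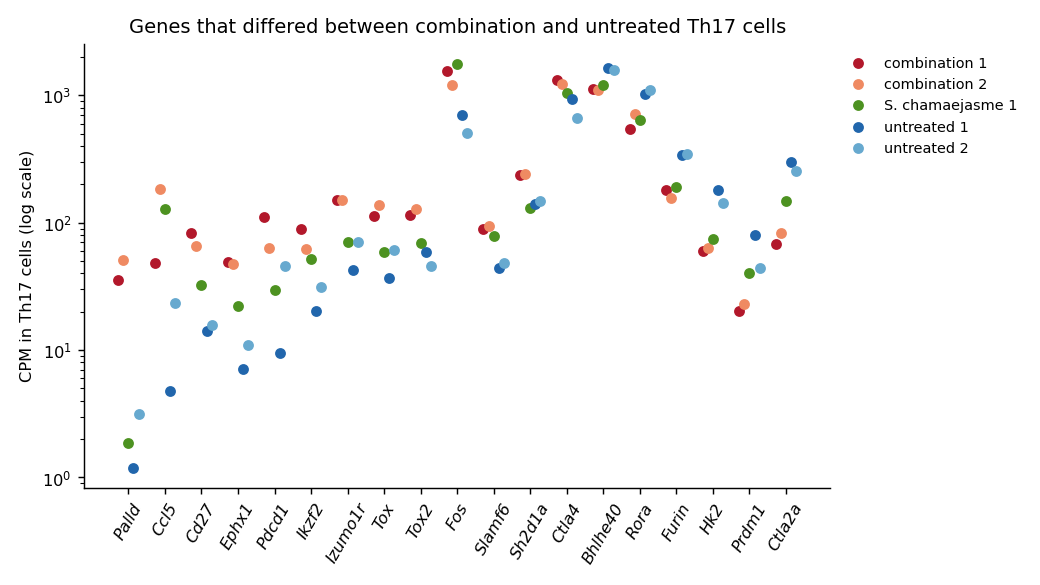
CPM in Th17 cells (vertical log axis) of 19 genes that differed between combination and untreated Th17 cells, each point 1 library. Combination points lie above untreated points from Palld to Ctla4 and below them from Bhlhe40 to Ctla2a.

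Th17 cells of the S. chamaejasme library differed from untreated Th17 cells in 70 of 7195 genes (0.973%), 27 higher (0.375%) and 43 lower (0.598%). There was 1 library with S. chamaejasme, assumed to vary like the other groups, and both comparisons used the same untreated libraries. Without each untreated or combination library in turn the count ran from 162 to 282, and without cells with 2 or more TRB chains it was 19. In that last setting Ccl5, Spry1, Dbp, Bmyc, Tnfsf11, Hk2, Ifitm3, Ece1, Trps1, Hist1h2ap and Larp7 lost their calls, at adjusted p from 0.0551 to 0.103. Without untreated library 1 Bmyc (adjusted p = 0.0764) and Ifitm3 (adjusted p = 0.203) lost theirs. The 10 largest rises were Hspb1, Ccl5, Ifng, Spry1, Igfbp4, Dbp, Rcbtb2, Bmyc, Ms4a4b and Fos. Hspb1, a small heat shock protein, stood at 51.3 CPM with S. chamaejasme, against 2.37 and 3.13 CPM untreated (4.17 ± 0.60, adjusted p = 0.000874). Ifng, the Th1 cytokine, stood at 84.0 CPM, against 16.6 and 15.6 CPM (2.36 ± 0.43, adjusted p = 0.00817), and Ccl5 at 129 CPM, against 4.74 and 23.5 CPM (3.29 ± 0.58, adjusted p = 0.00647). Zfp36, which destabilises cytokine mRNA, rose by 1.22 ± 0.16, Lgals3, which encodes galectin-3, by 1.13 ± 0.21, Tnfsf11 by 1.02 ± 0.23 and Junb, an AP-1 factor needed by Th17 cells, by 0.87 ± 0.14.

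The 10 largest falls with S. chamaejasme included Gm47283, Lars2, Il1r2, AY036118, Ifitm3, Ece1, Trps1, Hist1h2ap and Larp7. Il1r2, the decoy receptor for IL-1, stood at 34.5 CPM with S. chamaejasme, against 188 and 167 CPM untreated (-2.36 ± 0.31, adjusted p = 0.000251), and in the combination at 118 and 78.0 CPM. Tnfrsf4, which encodes OX40, stood at 151 CPM, against 325 and 357 CPM (-1.17 ± 0.21, adjusted p = 0.00817), and Hk2 at 74.6 CPM, against 181 and 142 CPM (-1.12 ± 0.26, adjusted p = 0.0396). Of the RNA quality transcripts 5 of 9 were lower. No follicular helper gene was called in this comparison (0 of 11 by edgeR).

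Whether the combination changed Th17 cells differently from the other cells was tested as an interaction. Of 8385 genes 7 passed (0.0835%), 6 higher (0.0716%) and 1 lower (0.0119%), all at an adjusted p of 0.0378: Sostdc1, Palld, Cd27, Izumo1r, Maff and Ctla4 upwards and Arl4c downwards. Izumo1r had 145 and 145 CPM in combination Th17 cells and 41.8 and 69.4 CPM in untreated Th17 cells, and 202 and 228 CPM in the other cells of the combination and 188 and 215 CPM in those of untreated tumours (interaction 1.32 ± 0.21 on the log2 scale). Ctla4 had 1271 and 1190 CPM in combination Th17 cells and 924 and 654 CPM in untreated ones, and 329 and 379 CPM and 438 and 391 CPM in the other cells (0.89 ± 0.14). Pdcd1 did not pass (0.23 ± 0.45, adjusted p = 0.945), and it was also higher in the combination over all Cd8-negative Foxp3-negative TRB cells (1.41 ± 0.23, adjusted p = 0.0196). Without combination library 1 there was 1 call, which was none of the 7. There were 7 calls without combination library 2 and 8 without untreated library 1, 2 of the 7 among each, and Izumo1r lost its call in all 3 of these settings. There were 34 calls without untreated library 2 and 1 by DESeq2. With cells of 2000 to 8000 UMIs alone there were 96, and the balance turned to 22 higher and 74 lower. There were 0 when the clone with most Th17 cells was left out in each library or at least 2 cytokine UMIs were asked for (680 genes at an unadjusted p under 0.05 in the main fit).

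Th17 cells were more often members of expanded clones than the other cells. A clone was a set of cells of 1 tumour with the same TRBV segment and TRB CDR3 nucleotide sequence. In the combination 49.3 and 42.7% of Th17 cells sat in clones of 2 or more cells, against 7.06 and 7.28% of other cells, with S. chamaejasme 60.9%, against 16.1%, and untreated 60.6 and 34%, against 11.9 and 9.28%. The difference was positive in 5 of 5 libraries and averaged 39.2 percentage points (49.5% ± 11.6 and 10.3% ± 3.76, SD, n = 5; exact sign-flip permutation test, two-sided p = 0.0625, the smallest that 5 libraries allow). The 862 cells fell into 637 clones, 227 of which had 2 or more cells. The clone with most Th17 cells held 15 of them in untreated library 1 (6.88% of its Th17 cells), 9 with S. chamaejasme (3.38%) and 7 in combination library 1 (5.22%).

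Clone mates of Th17 cells were more often Th17 cells than eligible cells at large, a baseline that includes cells alone in their clone. Every mate sits in a clone of 2 or more cells, where Th17 cells were more frequent. The gap is therefore wider than one against expanded cells alone would be. Pairs also give large clones more weight. Over all pairs of a Th17 cell and a cell of its clone, the share in which the mate was itself a Th17 cell was 47.9 and 44.4% in the combination, 47.6% with S. chamaejasme and 79.7 and 37.1% untreated, against a share of 4.25 and 3.51%, 9.86%, and 21.5 and 7.48% among all eligible cells. Of 114 clones with 2 or more Th17 cells, 56 held only Th17 cells. Foxp3-positive cells were seen in 3 of 227 expanded clones with a Th17 cell and in 43 of 333 expanded clones without one, and Cd8-positive cells in 4 clones with a Th17 cell.

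**Figure D5:**
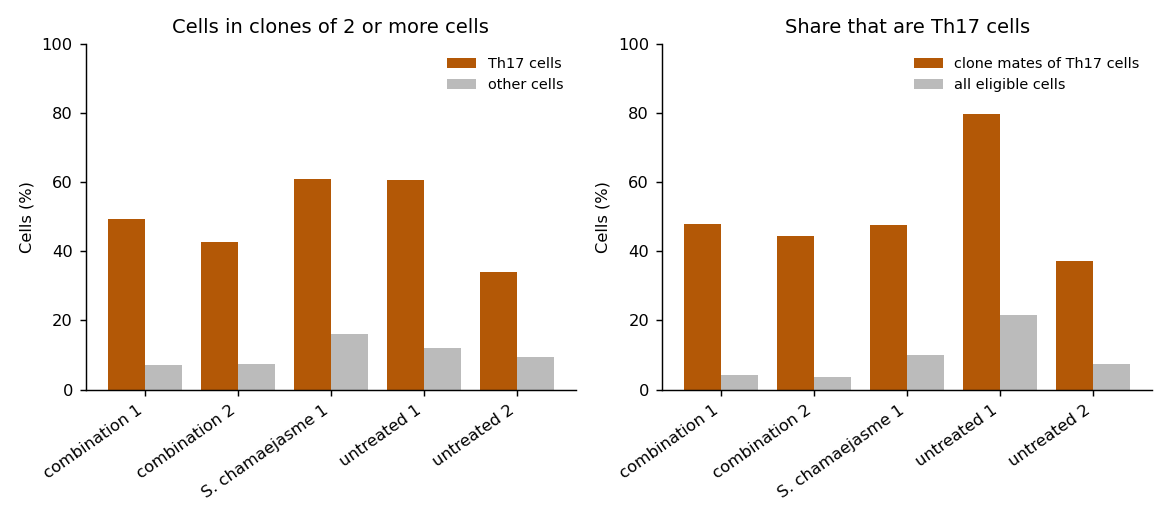
Left, share of Th17 cells (orange) and other cells (grey) in clones of 2 or more cells per library. Right, share of Th17 cells among the clone mates of Th17 cells (orange) and among all eligible cells (grey), with the orange bar higher in all 5 libraries in both panels.

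The clone mates without a cytokine UMI, 352 cells, were compared with the cytokine-negative cells of other expanded clones, a comparison added after the data were seen. Of 4286 genes 7 differed (0.163%), 1 higher (0.0233%) and 6 lower (0.14%). Tnfrsf9, which encodes 4-1BB, had 49.4 and 16.7 CPM in mates of the combination, 32.4 with S. chamaejasme and 54.0 and 26.4 untreated, against 148 and 126, 148, and 85.7 and 141 CPM in cells of other clones (-1.93 ± 0.23, adjusted p = 2.47e-05). Mates were below the other clones in every library. Tnfrsf9 is also on the list of regulatory T cell genes, of which 1 of 8 tested was lower and 0 were higher. Foxp3-positive cells were seen in 43 of 333 expanded clones without a Th17 cell and in 3 of 227 with one. Cells of such clones without a Foxp3 UMI were part of this comparison, and their part in the result was not tested. Ccl5 (-1.73 ± 0.28), Gm45716 (-0.93 ± 0.19), Samsn1 (-0.80 ± 0.13), Klf2 (-0.51 ± 0.10) and Ifngr1 (-0.46 ± 0.10) were lower and the segment Trbv31 higher (0.80 ± 0.17). Ccr6, too low in these cells to enter the test, had 53.1 and 10.7 CPM in mates of the combination, 26.4 with S. chamaejasme and 4.98 and 0 untreated, against 7.53 and 12.7, 27, and 10.2 and 12.4 CPM in cells of other expanded clones. It was higher in mates in combination library 1 and lower in the other 4 libraries, from 0 to 16 UMIs per library in mates. Il23r, also too low to test, had 15.2 and 5.36 CPM in mates of the combination, 4.95 with S. chamaejasme and 9.97 and 0 untreated. Cells of other expanded clones had 0 and 3.80, 0, and 15.3 and 6.19 CPM. These mate values came from 0 to 4 UMIs per library. Rora, tested and not called, was higher in mates in every library but untreated library 1.

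Receptor segments were counted once per clone. Of 17 TRBV segments 7 differed between Th17 clones and other clones (41.2%), and none of 17 TRAV, 12 TRBJ or 39 TRAJ segments did (0 called by edgeR). TRBV17 made up 3.74 and 3.53% of Th17 clones in the combination, 4.44% with S. chamaejasme and 2.13 and 3.23% untreated, against 1.30 and 1.62%, 1.60%, and 1.97 and 1.26% of other clones (log2 fold change 1.17 ± 0.32, adjusted p = 0.0171). TRBV31 (0.54 ± 0.17) and the segment annotated TRBV12-2+TRBV13-2 (0.57 ± 0.18) were also higher. TRBV14 (-1.41 ± 0.49), TRBV29 (-0.98 ± 0.29), TRBV2 (-0.87 ± 0.32) and TRBV10 (-0.70 ± 0.26) were lower. Without each library in turn 2 to 4 segments passed: TRBV17 lost its call without the S. chamaejasme library (1.02, adjusted p = 0.0765) and TRBV31 without combination library 2 (0.46, adjusted p = 0.074). TRBV10 lost its call without every library in turn (adjusted p from 0.0506 to 0.257), TRBV2 without each library but combination library 2, TRBV29 without untreated library 2, the S. chamaejasme library or combination library 2, TRBV14 without either combination library or the S. chamaejasme library, and TRBV12-2+TRBV13-2 without untreated library 1 and without combination library 2. Mean CDR3 length was not shown to differ (exact sign-flip permutation test, p = 0.3125).

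A TRBV17 receptor recurred in Th17 cells of different tumours. It was picked after its counts were seen and is given as a description. Its beta chain joins TRBV17 (chromosome 6, GRCm38 41163062 to 41163556, plus strand) to TRBJ1-1 with a CDR3 of 42 bases that encodes 1 and the same run of 14 residues through 5 nucleotide sequences. They are shown because 1 protein sequence was encoded by several nucleotide forms, beta 1 of which occurred in 2 tumours, with capitals at the positions that vary:
TRBV17 beta 1: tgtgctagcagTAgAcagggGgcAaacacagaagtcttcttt
TRBV17 beta 2: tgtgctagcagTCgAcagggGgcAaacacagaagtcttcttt
TRBV17 beta 3: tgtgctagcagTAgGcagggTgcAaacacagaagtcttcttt
TRBV17 beta 4: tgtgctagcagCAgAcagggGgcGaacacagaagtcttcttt
TRBV17 beta 5: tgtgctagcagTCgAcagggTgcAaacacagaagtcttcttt

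It was carried by 33 Th17 cells and 11 other cells, with 44 distinct barcodes. Untreated library 1 held 15 Th17 cells, all with beta 1, and the S. chamaejasme library held 17, namely 7 with beta 1, 9 with beta 2 and 1 with beta 4. Combination library 2 held 1 Th17 cell with beta 5 and 2 other cells with beta 3, and the remaining libraries held none. The clones with most Th17 cells in untreated library 1 (15 cells, beta 1) and in the S. chamaejasme library (9 cells, beta 2) were both of this receptor. No Foxp3-positive and no Cd8-positive cell carried it.

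Of the 39 cells with an alpha chain, 32 paired this beta chain with TRAV9 and TRAJ34 (chromosome 14). The 7 alpha CDR3 sequences had 36 bases each and differed at 5 positions, 4 of them in the junction, shown in capitals because the rest of the CDR3 was the same in every tumour:
alpha 1: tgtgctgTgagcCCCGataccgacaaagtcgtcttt
alpha 2: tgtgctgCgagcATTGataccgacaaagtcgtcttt
alpha 3: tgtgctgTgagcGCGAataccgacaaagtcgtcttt
alpha 4: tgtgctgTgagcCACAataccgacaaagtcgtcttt
alpha 5: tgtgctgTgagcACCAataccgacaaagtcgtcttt
alpha 6: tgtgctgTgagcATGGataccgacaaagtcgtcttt
alpha 7: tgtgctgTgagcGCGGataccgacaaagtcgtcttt

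Alpha 1 was seen in 13 Th17 cells and 2 other cells of untreated library 1 only, alpha 2, 3 and 5 in 5, 3 and 1 Th17 cells of the S. chamaejasme library, and alpha 7 in 1 Th17 cell of combination library 2. With any CDR3, TRBV17 paired with TRAV9 and TRAJ34 in 24 of 753 Th17 cells with an alpha chain (3.19%) and in 12 of 9357 other cells (0.128%). By clone this was 6 of 581 (1.03%) and 8 of 8944 (0.0894%). These numbers include the receptor above, which was picked after its counts were seen, so they are no independent result. That receptor accounted for 13 (untreated 1), 9 (S. chamaejasme) and 1 (combination 2) of the 24 Th17 cells. The 13 cells were of 1 clone. Of the 12 other cells it accounted for 2, 5 and 2, in the same order.

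A second TRBV17 receptor, with a CDR3 of 36 bases for 12 residues, was found in 12 Th17 cells and 7 other cells of 4 tumours. It paired with TRAV9 and TRAJ50 in 14 of 15 cells with an alpha chain, and its 3 nucleotide forms differ at 2 positions:
TRBV17 short beta 1: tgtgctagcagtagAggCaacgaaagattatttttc
TRBV17 short beta 2: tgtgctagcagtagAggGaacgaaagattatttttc
TRBV17 short beta 3: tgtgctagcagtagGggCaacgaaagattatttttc

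Short beta 1 was in 6 Th17 cells with S. chamaejasme and 1 in combination library 1, short beta 2 in 1 Th17 cell of combination library 1 and 1 and 2 Th17 cells of the untreated libraries, and short beta 3 in 1 Th17 cell of combination library 1. It was also carried by 1 Cd8-positive cell and no Foxp3-positive cell. In all, 15 of 611 Th17 receptors (TRBV and CDR3 protein) occurred in Th17 cells of 2 or more tumours (2.46%), against 170 of 10010 receptors of other cells (1.70%). The invariant alpha chains of iNKT and MAIT cells were found in 4 and 3 of 753 Th17 cells and in 40 and 6 of 9357 other cells.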

How the data were processed

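Whole-number UMI counts per gene and cell barcode were deposited by the authors for 5 libraries of 5′ droplet single-cell RNA-seq (31053 features), each with a table of the filtered T cell receptor contigs of the same tumour. Cell Ranger 3.1.0, STAR and the mm10 build are named in the submitters' processing notes. The groups, 3 in all, came from the labels. The members and gene lists were chosen with earlier results of these data known.

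Barcodes under 300 genes or over 10% mitochondrial UMIs were dropped. No doublet caller was run; cells with 2 or more productive TRB chains were left out as an alternative. UMIs were summed per library and cell class, filtered by filterByExpr, scaled by TMM and tested with edgeR 4.0.16 quasi-likelihood tests (R 4.3.3) at a Benjamini-Hochberg adjusted p under 0.05 over all genes tested; the 6 genes of the rule were removed first. Th17 and other cells of the same library were paired by a library block (4 residual degrees of freedom); group fits used all 5 libraries and had no block (2 residual degrees of freedom). Shares were compared by exact permutation in SciPy 1.17.1. The tests were tested on simulated data.

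Named genes were, among called genes, the 15 largest rises and 10 largest falls in the same direction in all 5 libraries for Th17 against other cells, the 10 largest each way without overlap of groups for the treatments, and up to 5 each way for the interaction, leaving receptor V segments, ribosomal protein and mitochondrial genes to lists, plus list members. Alternatives were DESeq2 1.42.0, other size factors (RLE), no filter on low counts, at least 2 cytokine UMIs per cell, cells with 2000 to 8000 UMIs, the clone with most Th17 cells left out, and each library left out in turn. Coordinates are GRCm38. A few genes are not reported here.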

Additional observations from a re-analysis of the deposited data

Results flagged for a closer look

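The difference between Th17 cells and other cells changed between combination and untreated tumours in 7 genes, by a test of the difference itself (interaction term, edgeR, all at an adjusted p of 0.0378). On the log2 scale the change was 9.94 for Sostdc1, 4.03 for Palld, 1.80 for Cd27, 1.32 for Izumo1r, 1.004 for Maff, 0.89 for Ctla4 and -1.43 for Arl4c.

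Sostdc1 had 7.39 and 32.3 CPM in combination Th17 cells and 0 in both untreated libraries, so its fitted value depends on the prior count; in the other cells it had 2.35 and 7.40 CPM in the combination and 6.30 and 5.26 CPM untreated. Palld had 34.5 and 49.4 CPM in combination Th17 cells and 1.16 and 3.08 CPM in untreated ones, and 6.99 and 6.92 CPM and 6.30 and 4.83 CPM in the other cells. Cd27 had 80.1 and 63.0 CPM in combination Th17 cells and 13.9 and 15.4 CPM in untreated ones, and 168 and 186 CPM and 130.2 and 115 CPM in the other cells. Maff, a small Maf factor, had 222 and 196 CPM in combination Th17 cells and 196 and 159 CPM in untreated ones, and 113 and 91.7 CPM and 182 and 168 CPM in the other cells. Arl4c, a small GTPase, had 38.2 and 25.5 CPM in combination Th17 cells and 81.4 and 114 CPM in untreated ones, and 78.8 and 69.0 CPM and 73.6 and 91.0 CPM in the other cells. The RNA quality transcripts were lower in the combination in both classes of cell, and their part in these values was not tested.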

How the results depend on the processing

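Th17 cells gave 554596 to 1084071 UMIs per library, and each treatment had at most 2 libraries. With DESeq2 the calls were 30 for combination against untreated Th17 cells, 30 for S. chamaejasme against untreated, 1 for the interaction, 402 for all Cd8-negative Foxp3-negative TRB cells and 2 for clone mates. With no filter on low counts they were 264, 201, 65, 1633 and 56. Without cells with 2 or more TRB chains, S. chamaejasme against untreated gave 19 and the interaction 15, and with 2000 to 8000 UMIs per cell the interaction gave 96. Without the clone with most Th17 cells, and with at least 2 cytokine UMIs, the interaction gave 0, and with at least 2 cytokine UMIs the clone mates gave 3. Counted by cell, 1 TRAJ segment passed. With each library left out in turn, calls ran from 1793 to 1929 for Th17 against other cells, 76 to 247 for combination against untreated Th17 cells, 162 to 282 for S. chamaejasme against untreated, 1 to 34 for the interaction, 205 to 2339 for all Cd8-negative Foxp3-negative TRB cells, 4 to 13 for clone mates, 2 to 4 for TRBV and 0 to 1 for TRBJ segments. The cause was not tested.

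Against other cells in clones of 2 or more cells, 613 genes differed in place of 2158, and of 199 named or listed genes called against all other cells and tested in both, 45 took the opposite sign, 9 of them past the threshold. Among those reported here were Igfbp4 (0.28), Areg (-0.17), Ccr7 (0.38), Cxcr3 (-0.038), Hif1a (-0.37), Il21 (-0.66), Tnfrsf4 (-0.36), Maf (-0.01), Tigit (-0.78) and Tox2 (-0.71).

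Without the replicate block, Th17 against other cells gave 1514 calls, clone mates 1, TRBV segments 3 and TRBJ segments 1. No paired analysis was possible for the treatments because the replicate numbers were given in accession order and pair no libraries. The differences in Th17 share and in clone share kept their direction under every alternative run.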
